A study of Mus musculus with 8 samples.

Results

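Cytochrome c oxidase is complex IV of the mitochondrial respiratory chain, and copper is one of its cofactors. The genes described here are those of its nuclear-encoded subunits, of the factors that assemble it, and of complex III and cytochrome c, which hand it electrons. They were chosen by name as a list of 33 gene symbols. A symbol was kept where the array had a transcript cluster (a set of probes along 1 transcript) annotated to that gene alone, and the cluster with the highest mean over all 8 arrays stood for the gene. This left 30 genes of the 19938 that had such a cluster. They are 14 subunits, 10 assembly factors, 5 genes of complex III and cytochrome c, and Cox7a2l, listed as a factor for supercomplexes of complexes III and IV. The subunit gene Cox7c and the copper-related assembly genes Sco2 and Cox16 had clusters annotated to several genes and were not analysed here.

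The tissue was corpus callosum, the white matter tract between the cerebral hemispheres, from male wild-type C57BL/6 mice aged 8 weeks. Mice of the control group (n = 4) were on normal diet, and those of the cuprizone group (n = 4) had received a diet with 0.25% cuprizone for 1 week. Cuprizone is a copper chelator used to bring about loss of oligodendrocytes and myelin. The animals were perfused, RNA was extracted from tissue dissected by hand, and each sample was measured on 1 Affymetrix Mouse Gene 1.0 ST array. The dissected tissue holds all cell types of the tract and may hold cells from beside it, and the whole animal received the diet.

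The enzyme has a catalytic core encoded by mitochondrial DNA, which holds the haem A and copper sites, and a surrounding set of subunits encoded in the nucleus. Copper reaches the core through a chain of small proteins: COX17 in the space between the membranes passes it to SCO1, SCO2 and COX11, which load the copper sites, while COX10 and COX15 make haem A. Without these factors the enzyme is not assembled or lacks its cofactors. Transcript levels do not measure its amount or activity.

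All values are log2 levels from the arrays, so a difference of 1 is a 2-fold change. Levels of different genes were read by different probes and are not compared with each other. Pearson's r over the clusters was 0.9952 to 0.9971 between arrays within a group and 0.9884 to 0.9944 between arrays of different groups. Of 11 measured marker genes of mature oligodendrocytes, all 11 fell, with a median log2 fold change of -2.15, and relative to the control mean their mean was -2.82, -1.96, -2.18 and -2.38 on the cuprizone arrays. In tissue RNA fewer cells of a type and less RNA per cell cannot be told apart. Of 11 microglial markers 9 rose and none fell. Of 10 astrocyte markers 3 rose and 2 fell. By limma none of 12 neuronal, 7 endothelial, 6 choroid plexus and 8 muscle markers and the 1 red cell marker was called. At an unadjusted p under 0.05 there were 1, 3, 2, 1 and 0, against 20.8% of all clusters. The medians were -0.050, -0.14, -0.16, 0.0042 and 0.028. All 7 endothelial markers lay below 0. Relative to control, their mean was -0.17, -0.083, -0.078 and -0.14 on the cuprizone arrays and -0.036 to 0.022 in control. The choroid plexus mean varied widely within both groups. It was -0.32, 0.32, -0.58 and 0.58 on the control arrays and -0.52, 0.32, -0.49 and 0.14 on the cuprizone arrays. Its part in the results was not tested. Control means of the neuronal markers ran from 8.67 (Tubb3) to 12.82 (Snap25), so neurons, also from beside the tract, may add to the values. Their share of the RNA was not tested.

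After 1 week of cuprizone none of the 30 genes was called higher or lower by limma at an adjusted p under 0.05, where 8.22% of all 23410 gene-named clusters were called (4.71% higher and 3.52% lower). At an unadjusted p under 0.05 there was 1 gene, the assembly factor Cox18, against 20.8% of all clusters, and an ordinary F test without moderated variances also called 0 of the 30. The groups did not overlap for 1 gene, again Cox18, against 15.3% of all clusters. The log2 fold changes, cuprizone minus control, ran from -0.11 to 0.24 with a median of 0.0051, and 18 lay above 0 and 12 below. The median over all clusters tested was -0.0074.

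The width of the intervals shows which differences in array values these 8 arrays could have missed. Array folds are compressed, so the intervals do not bound changes of the transcripts themselves. The 95% interval of the difference, from limma and not adjusted for the number of genes, lay within a 1.5-fold change in either direction for all 30 genes, as it did for 94.8% of all clusters tested. For 22 of the 30 it lay within a 1.2-fold change, against 58.2% of all clusters. The lowest bound of any gene was -0.31 (Cyc1) and the highest 0.39 (Cox18).

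**Figure D1:**
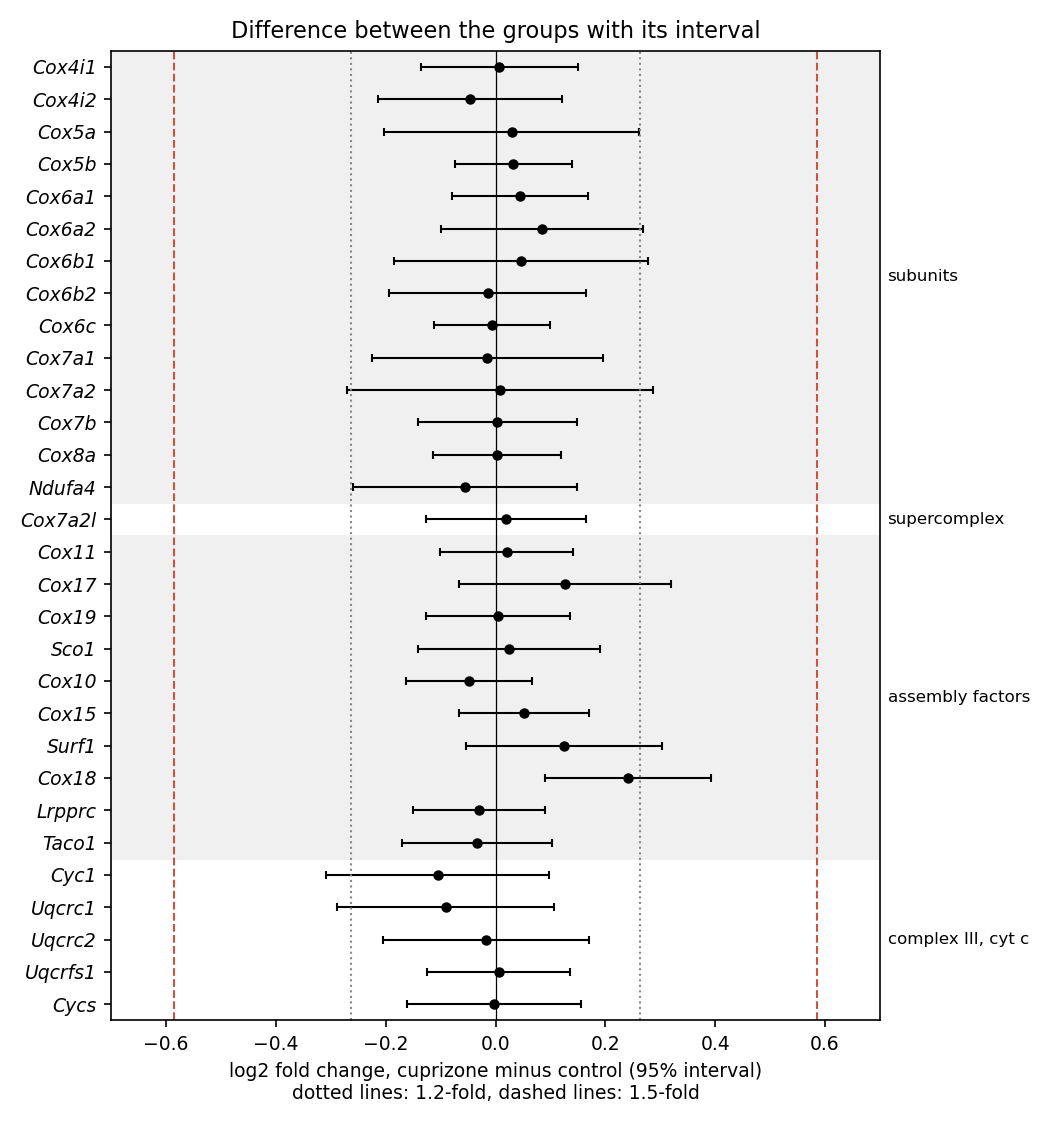
Log2 fold change of each of the 30 genes (points) with its 95% interval from limma (bars), n = 4 arrays a group, ordered by role; dotted and dashed lines mark 1.2-fold and 1.5-fold changes. All intervals stay inside the 1.5-fold lines, and that of Cox18 is the only one that does not hold 0.

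Subunits were close to equal in the groups. Their median log2 fold change was 0.0049, from -0.056 (Ndufa4) to 0.085 (Cox6a2), and 9 of 14 lay above 0, against 47.4% of all clusters. Limma's adjusted p ran from 0.648 to 0.986.

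Cox4i1 encodes the ubiquitous form of subunit 4, which takes part in the regulation of the enzyme by ATP. Its log2 levels were 10.06, 10.02, 9.98 and 9.97 on the control arrays and 9.97, 10.05, 10.15 and 9.88 on the cuprizone arrays. The cuprizone arrays held both the highest and the lowest value. The difference was 0.0066 ± 0.065 (SE, limma adjusted p = 0.971). Cox4i2, the isoform known for its induction by low oxygen, had a control mean of 7.35 ± 0.08 (SD, n = 4) and a cuprizone mean of 7.30 ± 0.14, and its groups overlapped.

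Cox5a and Cox5b encode the subunits that lie on the matrix side of the core. Cox5a had means of 9.25 ± 0.15 and 9.28 ± 0.20 in control and cuprizone. Cox5b varied far less between arrays, from 11.56 to 11.62 in control and from 11.59 to 11.66 with cuprizone. Its difference of 0.032 had an interval from -0.074 to 0.14.

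Cox6c is a small membrane subunit and had the smallest spread between arrays of all 30 genes, a pooled SD of 0.023. Its levels were 12.63, 12.66, 12.68 and 12.67 in control and 12.66, 12.66, 12.67 and 12.61 with cuprizone. The values intermingled, and the interval of the difference ran from -0.11 to 0.10. Cox8a, another membrane subunit, stood at 11.43 ± 0.05 and 11.43 ± 0.04. Cox6b1, which bridges the monomers of the dimeric enzyme, stood at 11.13 ± 0.20 and 11.18 ± 0.16, and Cox6a1, the liver-type form of subunit 6A, at 10.64 ± 0.03 and 10.68 ± 0.08.

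Cox7a2 encodes the liver-type form of subunit 7A and had the largest spread of the 30 genes, a pooled SD of 0.22. Its control levels were 9.45, 9.39, 9.83 and 9.37, and its cuprizone levels 9.39, 9.38, 9.86 and 9.43. Replicate 3 stood apart in both groups, while the other 6 arrays lay between 9.37 and 9.45. The difference of the means was 0.0079, with an interval from -0.27 to 0.29. Cox7b had means of 11.77 ± 0.06 and 11.77 ± 0.11.

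Ndufa4, once counted to complex I and now known as a subunit of complex IV, had the lowest fold change of the subunits. Its levels were 9.95, 9.79, 9.98 and 9.80 in control and 9.74, 9.83, 10.08 and 9.63 with cuprizone. The cuprizone arrays again spanned the control range, and the difference was -0.056 ± 0.092 (SE, limma adjusted p = 0.814).

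The isoforms of heart and skeletal muscle, Cox6a2 and Cox7a1, and the testis isoform Cox6b2 also overlapped between the groups. Cox6a2 stood at 8.20 ± 0.11 in control and 8.29 ± 0.15 with cuprizone, the highest fold change of the subunits, 0.085 ± 0.083 (SE, limma adjusted p = 0.648). Cox7a1 stood at 6.80 ± 0.05 and 6.78 ± 0.22, with cuprizone replicate 4 at 6.50 as the lowest array. Cox6b2 stood at 6.44 ± 0.18 and 6.43 ± 0.04.

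Cox7a2l, listed as a supercomplex factor, stood at 8.10 ± 0.12 in control and 8.12 ± 0.04 with cuprizone, a difference of 0.019.

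Of the 10 assembly factors none was called, where 8.22% of all clusters were called, so the count is near the background. Above 0 lay 7, against 47.4% of all clusters, and the median log2 fold change was 0.022. The groups overlapped for 9 of them and did not for 1, near the 15.3% of all clusters without overlap.

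The copper delivery genes were measured in 4 of 6 cases, and all 4 lay above 0, from 0.0048 to 0.13, against 47.4% of all clusters. Most of these signs were not stable. Leaving out 1 array gave -0.027 to 0.033 for Cox19, -0.0052 to 0.042 for Cox11 and -0.015 to 0.077 for Sco1. For Cox17 it gave 0.062 to 0.20. Cox17, the copper chaperone at the head of the chain, had levels of 7.06, 6.78, 6.74 and 6.80 in control and 6.95, 6.83, 6.94 and 7.16 with cuprizone. Control replicate 1 lay above 3 of the 4 cuprizone arrays. The difference was 0.13 ± 0.09 (SE, limma adjusted p = 0.482), with an interval from -0.067 to 0.32.

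Sco1 encodes a copper-binding protein that helps to load the copper site of the second core subunit. Its levels were 7.31, 7.41, 7.38 and 7.54 in control and 7.55, 7.28, 7.52 and 7.39 with cuprizone. The lowest array and the highest array were both of the cuprizone group, and the difference was 0.024. Cox11, which delivers copper to the first core subunit, stood at 9.04 ± 0.05 and 9.06 ± 0.06, and its partner in that step Cox19 at 7.82 ± 0.06 and 7.83 ± 0.08.

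The enzymes of haem A synthesis had differences of opposite sign, and neither was called. Cox10, which attaches the farnesyl tail to haem, had levels of 8.56, 8.69, 8.58 and 8.66 in control and 8.56, 8.58, 8.59 and 8.56 with cuprizone. The cuprizone arrays lay at the low end of the control range, with a difference of -0.048 and an interval from -0.16 to 0.067. Cox15, which acts after it, stood at 7.85 ± 0.06 and 7.90 ± 0.04.

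Cox18 had the largest difference of the list. It encodes the membrane protein that moves the tail of the second core subunit, with its copper site, across the inner membrane. Its levels were 9.51, 9.50, 9.27 and 9.36 in control and 9.58, 9.64, 9.74 and 9.64 with cuprizone. Every cuprizone array lay above every control array, with the lowest control and the highest cuprizone value both on arrays numbered replicate 3. The log2 fold change was 0.24 ± 0.07 (SE; 1.18-fold, interval 1.07 to 1.31), at a limma adjusted p of 0.0553, short of the threshold.

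Whether Cox18 passed depended on the processing. It passed in 4 of 21 alternatives, with adjusted p from 0.0269 to 0.0486: both filters on dim clusters, a repeated quantile normalization, and an intensity trend with a robust prior. Leaving out any 1 array gave adjusted p from 0.0566 to 0.144, and leaving out both replicate 3 arrays gave 0.16 on the log2 scale with an adjusted p of 0.261. Its value was above 0 in all 21.

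Surf1, needed for an early step around the haem sites of the first core subunit, stood at 9.05, 9.13, 9.28 and 8.98 in control and at 9.15, 9.27, 9.40 and 9.12 with cuprizone. The groups overlapped, at a difference of 0.13 ± 0.08 (SE, limma adjusted p = 0.443). Lrpprc, which stabilises mitochondrial messenger RNAs, stood at 8.95 ± 0.08 and 8.92 ± 0.01, and Taco1, which activates translation of the first core subunit, at 7.60 ± 0.09 and 7.57 ± 0.06.

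Between subunits and assembly factors the medians, 0.0049 and 0.022, lay 0.017 apart. Per array, the mean of the 10 assembly factors minus the mean of the 14 subunits, each taken relative to the control mean, was 0.042, 0.045, -0.092 and 0.0045 in control and 0.049, -0.032, -0.028 and 0.17 with cuprizone. The 2 groups overlapped, with cuprizone replicates 1 and 4 above all control arrays. No test was made of these list means, since the genes had been chosen with results of these data known.

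**Figure D2:**
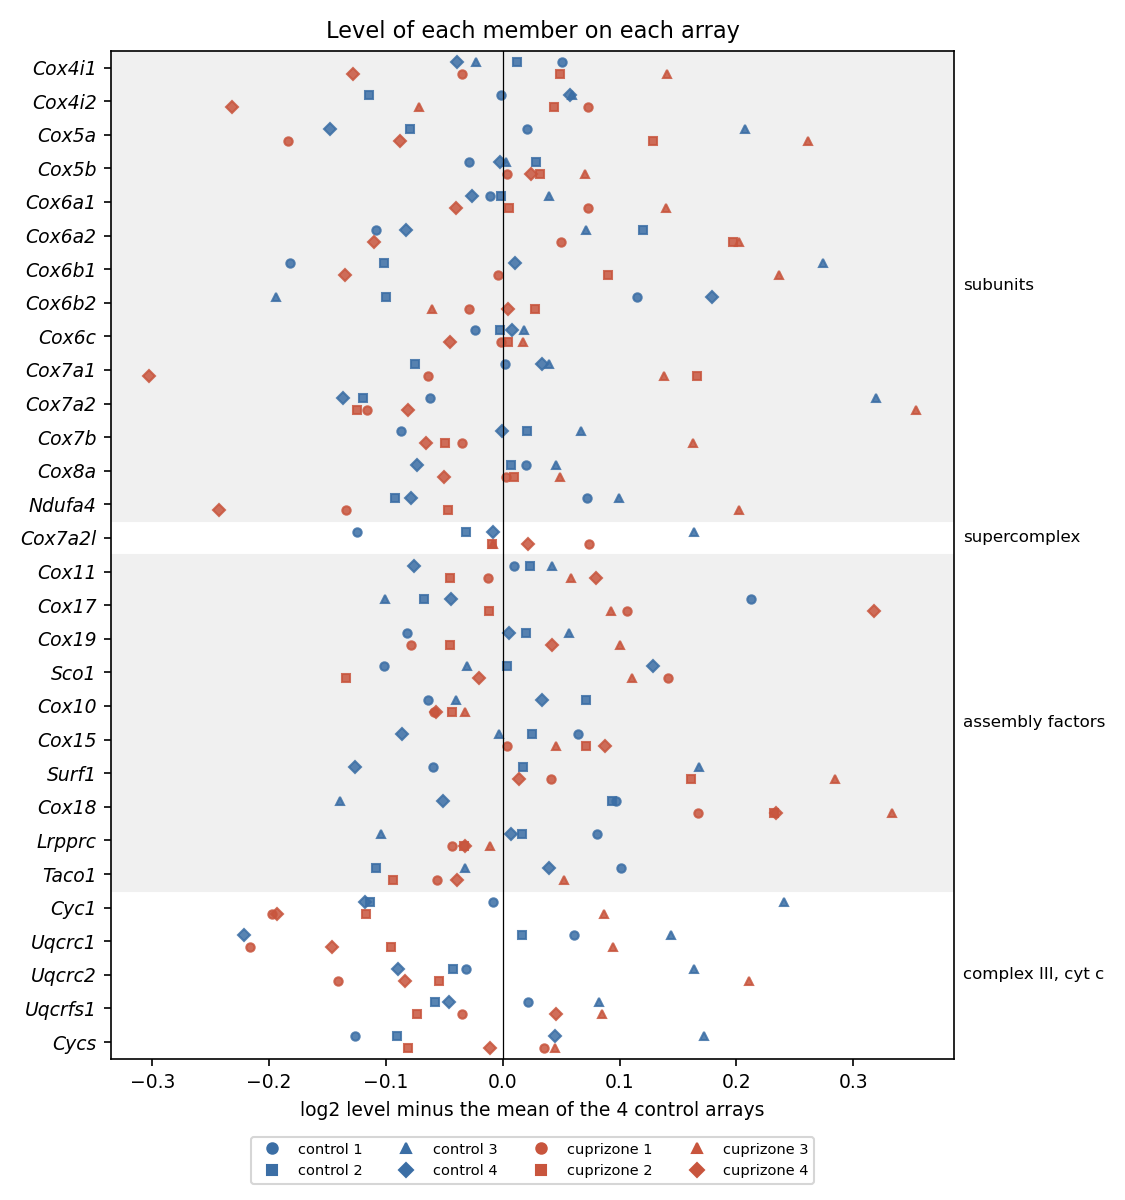
Log2 level of each gene on each array, as the distance from the mean of the 4 control arrays; blue symbols are control and red symbols cuprizone arrays, and the symbol shape gives the replicate number. The groups overlap for every gene but Cox18, and replicate 3 (triangles) is highest in both groups for 15 of the 30 genes.

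Among the genes that deliver electrons to the enzyme, 4 of 5 lay below 0 and 1 above, against 47.4% of all clusters above 0. Their median was -0.017. None was called, which in a list of 5 genes is near the 8.22% of all clusters called. Cyc1, the cytochrome c1 of complex III, had the lowest fold change of all 30 genes. Its levels were 9.44, 9.33, 9.68 and 9.33 in control and 9.25, 9.33, 9.53 and 9.25 with cuprizone. The groups overlapped, at -0.11 ± 0.09 (SE, limma adjusted p = 0.597).

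The core protein genes Uqcrc1 and Uqcrc2 stood at 10.04 ± 0.16 and 9.95 ± 0.13, and at 11.43 ± 0.11 and 11.42 ± 0.16, in control and cuprizone. Uqcrfs1, the Rieske iron-sulphur protein, stood at 7.80 ± 0.06 and 7.80 ± 0.07. Cycs, the soluble cytochrome c that also triggers apoptosis once released, had levels of 11.52, 11.56, 11.82 and 11.69 in control and 11.68, 11.57, 11.69 and 11.64 with cuprizone. On the cluster used, all cuprizone arrays of Cycs fell inside the control range. On the dimmest of its 3 clusters cuprizone replicate 1, at 6.12, lay below the lowest control, 6.21.

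Spread within the groups was shared by many subunits and followed single arrays more than the diet. Control replicate 3 held the highest level of its group for 10 of 14 subunits and all 5 genes of complex III and cytochrome c, and cuprizone replicate 3 for 11 and 5. Over all 30 genes the counts were 19 and 22, where these arrays were the highest of their group for 26.2% and 26.5% of all clusters. For 15 of 30 genes replicate 3 was highest in both groups, against 11.4% of all clusters. The assembly factors had this on 3 and 6 of 10.

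The subunit mean, relative to control, was -0.016, -0.036, 0.073 and -0.022 on the control arrays and -0.029, 0.038, 0.13 and -0.11 on the cuprizone arrays. The high arrays of both groups were thus further apart from their own group than the group means were from each other (0.0085). Means of complex I genes (0.073 and 0.094) and of complex II and ATP synthase genes (0.053 and 0.15) were also highest on the replicate 3 arrays, as were those of the further complex III genes (0.085 and 0.064). Other lists went differently in at least 1 group. The further subunit isoforms were lowest of their group on cuprizone replicate 3 (-0.10). The further assembly factors stood at -0.030 on control replicate 3 and 0.048 on control replicate 1, but were highest of their group on cuprizone replicate 3 (0.068). The neuronal marker mean was highest of its group on the replicate 3 arrays, at 0.069 in control and 0.0024 with cuprizone. Its part in the pattern was not tested. Without both arrays the medians were -0.0045 for subunits and 0.0066 for assembly factors, and none of the 30 genes was called.

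**Figure D3:**
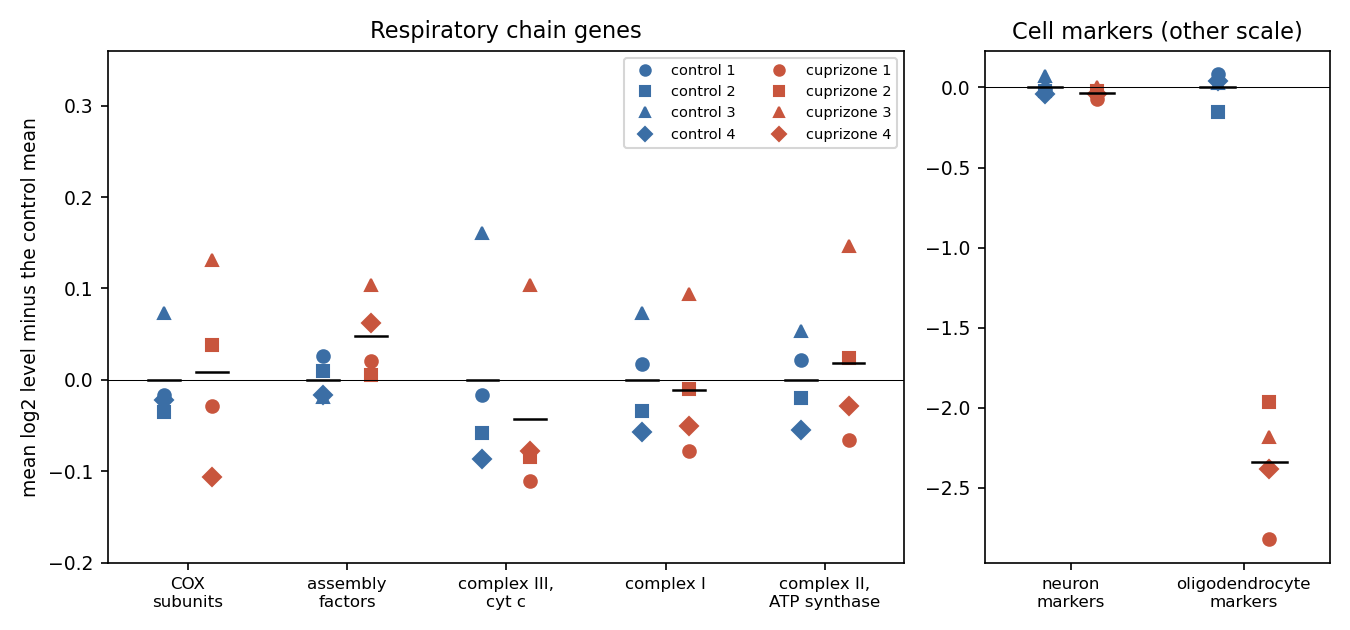
Mean log2 level of each gene list on each array relative to the control mean (left, respiratory chain lists; right, cell markers on a wider scale); black bars are group means of 4 arrays. Replicate 3 (triangles) is highest in both groups for 4 of the 5 lists on the left, and for the assembly factors in the cuprizone group only, while the oligodendrocyte markers run from -2.82 to -1.96 on the cuprizone arrays.

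For 5 genes (Cox5b, Cox6c, Cox7b, Cox7a2l and Cycs) the annotation held more than 1 cluster of that gene alone, and for all of these but Cycs it gave the clusters the same accessions. Which cluster reads the gene itself and which a near-identical copy is not settled here. Their differences were 0.032 and 0.014 for Cox5b, -0.0063 and -0.016 for Cox6c, 0.0032 and 0.027 for Cox7b, and 0.019 and -0.041 for Cox7a2l, with the cluster used named first. The 3 clusters of Cycs gave -0.0031, -0.021 and -0.13. None of these clusters was called or had an unadjusted p under 0.05.

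The further respiratory chain genes measured showed no called gene either, where 8.22% of all clusters were called. In a list as short as 4 genes, 0 calls is near that share. Of 16 further measured assembly factors of complex IV none was called, with a median of -0.019, and the smallest p-values were those of Coa4 (0.10 ± 0.06) and Tmem177 (0.12 ± 0.07). Of 4 further subunit isoforms none was called, and the smallest p-values were those of Cox8b (-0.18 ± 0.10) and Cox7b2 (0.098 ± 0.070). The brighter of 2 clusters annotated as COX2, the mitochondrially encoded second core subunit, stood at 13.05 ± 0.09 and 13.06 ± 0.06 (SD). Both carry the same accession, and whether that cluster reads the mitochondrial gene or a nuclear copy is not settled here. None of 11 further complex III genes was called, with Uqcc2 at 0.13 ± 0.05 and Bcs1l at -0.12 ± 0.07. None of 34 complex I subunits was called, with Ndufa1 at -0.17 ± 0.08 and Ndufb2 at -0.15 ± 0.10. None of 18 genes of complex II and ATP synthase was called, with Sdhd at 0.090 ± 0.089 and Sdhc at 0.068 ± 0.069. Errors here are SE from limma. Over these lists only Uqcc2 had an unadjusted p under 0.05, against 20.8% of all clusters.

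Of 13 genes of the wider copper route 1 was called by limma, where 8.22% of all clusters were called, so the count is near the background. Above 0 lay 11 of the 13, against 47.4% of all clusters, and 3 had an unadjusted p under 0.05. Atp7a, the copper pump that loads secreted enzymes and exports copper, had levels of 7.74, 7.84, 7.74 and 8.02 in control and 8.12, 8.17, 8.06 and 8.30 with cuprizone. It rose 1.26-fold (0.33 ± 0.08, limma adjusted p = 0.0257), and the groups did not overlap. The call was lost without any 1 of control replicates 1, 2 and 3 and cuprizone replicates 2 and 4 (limma adjusted p 0.0515 to 0.0765), without both replicate 3 arrays (0.0884), with the neuronal marker mean as a covariate (0.0816) and in an ordinary F test (0.0935). The others with an unadjusted p under 0.05 were the metallothionein Mt2 (0.31 ± 0.09, limma adjusted p = 0.0636) and the metalloreductase Steap3 (0.18 ± 0.06, adjusted p = 0.112), neither called and both with overlapping groups. The copper importer Slc31a1 stood at 0.18 ± 0.08 and the mitochondrial copper and phosphate carrier Slc25a3 at 0.045 ± 0.054, also not called.

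The list of regulators of mitochondrial biogenesis holds transcription factors and coactivators of nuclear respiratory genes, and factors that transcribe mitochondrial DNA (Tfam, Tfb1m, Tfb2m and Polrmt). Of its 12 genes 3 were called by limma, all higher, where 4.71% of all clusters were called higher. Above 0 lay 11 of 12, against 47.4% of all clusters, with a median of 0.078. The groups did not overlap for 5 of the 12, against 15.3% of all clusters. Pprc1, a coactivator related to PGC-1alpha, had levels of 7.34, 7.33, 7.22 and 7.36 in control and 7.65, 7.55, 7.76 and 7.62 with cuprizone. It rose 1.26-fold (0.33 ± 0.06, limma adjusted p = 0.00662).

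Yy1, a zinc finger factor with known sites in genes of complex IV, rose 1.19-fold, from 9.70, 9.72, 9.68 and 9.65 to 9.97, 9.85, 10.01 and 9.95 (limma adjusted p = 0.0140). Gabpa, the DNA-binding subunit of GABP, also called NRF-2, likewise rose 1.19-fold, from 8.19, 8.15, 8.17 and 8.20 to 8.50, 8.33, 8.43 and 8.45 (limma adjusted p = 0.0161). The groups did not overlap for these 3 genes, nor for Nrf1 (0.17 ± 0.06, adjusted p = 0.128) and the GABP partner subunit Gabpb1 (0.15 ± 0.06, adjusted p = 0.160), which were not called. Limma's adjusted p was 0.0511 for Gabpa when control replicate 2 was left out and 0.0508 for Yy1 with the replicate number as a block, and none of the 3 was called without both replicate 3 arrays (0.0501 to 0.0935). Ppargc1a, PGC-1alpha itself, stood at 0.056 ± 0.064 and was not called.

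**Figure D4:**
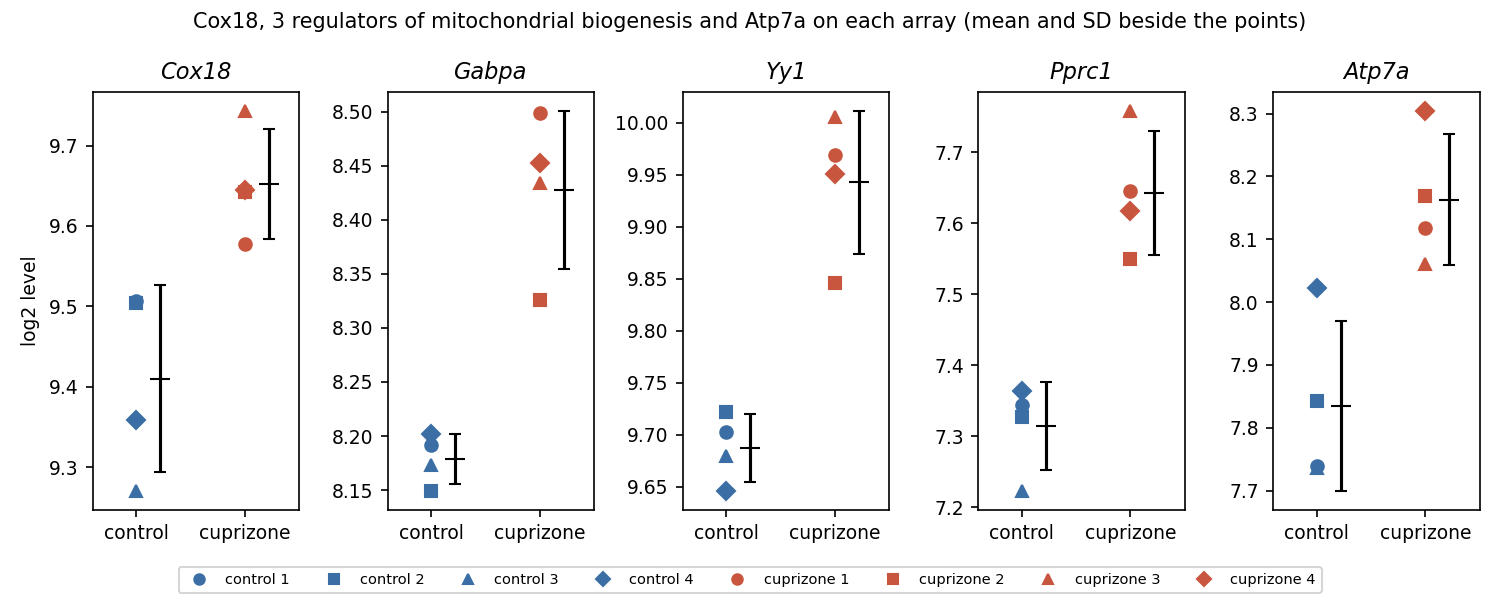
Log2 levels of Cox18, Gabpa, Yy1, Pprc1 and Atp7a on each array, each panel with its own axis that does not start at 0; blue is control, red cuprizone, shapes are replicate numbers, and bars give mean and SD (n = 4). The groups do not overlap in any panel, with Cox18 at an adjusted p of 0.0553 and the other genes past the threshold.

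The regions around the start sites of the 30 genes were searched for letters known to be bound by GABP and YY1, whose genes Gabpa and Yy1 rose, and by NRF1, whose gene was not called. RefSeq promoter windows (GRCm38.p6, 250 bases before to 50 after the annotated start) were found for 22 of the 30 genes. The GABP letters CCGGAAG, on either strand, stood in 7 of the 22 (Cox10, Cox15, Cox6a1, Cox6b1, Cox8a, Sco1 and Surf1), or 31.8%, against 9.93% of all 27025 genes with a window. The NRF1 letters GCGCANGCG stood in 3 (Cox6a1, Cycs and Uqcrc1), 13.6% against 7.03%, and the YY1 letters ATGGCGG in 1 (Cox10), 4.55% against 4.69%. No matches of different factors overlapped. The 27025 genes were not limited to those on the array, and were not matched to the 22 for gene type or base composition. These are matches of letters and not measured sites, several spellings were tried for each factor, and those given were chosen after their matches had been seen.

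The stretches before the start of 4 of these genes are shown because they hold the GABP letters in subunit genes (Cox6a1, Cox6b1), a haem A gene (Cox10) and a copper delivery gene (Sco1). In them capitals mark the GABP and NRF1 letters, CTTCCGG being GABP's on the opposite strand. Each ends at the base before the annotated start: Cox6a1 at chr5:115348959-115349158 (minus strand), Cox6b1 at chr7:30626115-30626214 (minus strand), Cox10 at chr11:64079473-64079572 (minus strand) and Sco1 at chr11:67052570-67052669 (plus strand).
Cox6a1: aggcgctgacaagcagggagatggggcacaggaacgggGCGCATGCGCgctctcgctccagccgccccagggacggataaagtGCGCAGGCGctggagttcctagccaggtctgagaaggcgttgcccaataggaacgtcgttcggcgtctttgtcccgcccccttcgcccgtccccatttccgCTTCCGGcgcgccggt
Cox6b1: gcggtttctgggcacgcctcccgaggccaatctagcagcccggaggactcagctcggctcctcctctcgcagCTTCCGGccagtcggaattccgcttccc
Cox10: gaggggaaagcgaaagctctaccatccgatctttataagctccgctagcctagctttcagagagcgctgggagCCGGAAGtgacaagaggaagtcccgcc
Sco1: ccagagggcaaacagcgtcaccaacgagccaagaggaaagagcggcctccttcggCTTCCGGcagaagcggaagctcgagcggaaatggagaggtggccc

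The matches began 16 bases before the start in Cox6a1, 28 in Cox6b1, 27 in Cox10 and 45 in Sco1. The log2 fold changes of these 4 genes were 0.044, 0.047, -0.048 and 0.024, none of them called, with limma adjusted p from 0.688 to 0.910. Those of the other genes with GABP letters were 0.052 (Cox15), 0.0026 (Cox8a) and 0.13 (Surf1), also not called.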

How the data were processed

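RNA of 8 corpus callosum samples was hybridised to Mouse Gene 1.0 ST arrays from 150 ng of total RNA each, per the labels' protocols. The authors deposited 1 log2 value per cluster and array. Affymetrix Expression Console, RMA and Transcriptome Analysis Console are listed, without role or version, per the submitters' processing notes. RMA as commonly run brings arrays to nearly the same distribution, so that a shift of most transcripts cannot be seen and folds are compressed. Detection calls and scan dates were not used here, so signal over background is unknown and no batch was tested.

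Of 28944 clusters, 21789 had 1 gene symbol in the platform annotation, 1621 several and 5534 none. The 30 genes all matched RefSeq by Entrez identifier. The 23410 clusters with a symbol were tested with limma 3.58.1 (R 4.3.3; 2 groups, no covariate, default prior, two-sided), with Benjamini-Hochberg adjustment over all of them and a threshold of 0.05. Errors beside means are SDs, those beside fold changes are SEs. The labels call the samples biological replicates. Members and lists were chosen with earlier results of these data known. All members are named; of each further list the called genes (at most 4 by p) or else the 2 with the smallest p; Mt2, Steap3, Slc25a3, Slc31a1, Nrf1, Gabpb1, Ppargc1a and the factors that transcribe mitochondrial DNA were named after their values were seen. The fit was tested on simulated data. The alternatives were the replicate block, leaving out arrays, a trend with robust prior, an ordinary F test, renormalization, centring, 2 filters on dim clusters, other sets of clusters, array weights and the neuronal marker mean as a covariate; leaving out both replicate 3 arrays was added after seeing the data.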

Additional observations from a re-analysis of the deposited data

Results flagged for a closer look

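Single arrays stood apart from the other 3 of their group, by Dixon's criterion for 4 samples, in 3 of the 90 groups of 4 values examined for the named genes; chance marks about 1 group in 20. Cox7a2 stood at 9.83 on control replicate 3, with the other controls between 9.37 and 9.45, and at 9.86 on cuprizone replicate 3, with the other cuprizone arrays between 9.38 and 9.43. Cox7b stood at 11.93 on cuprizone replicate 3, with the other cuprizone arrays between 11.70 and 11.73.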

How the results depend on the processing

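None of the 30 genes was called lower in any of the 21 alternatives. The count called higher was 1 (Cox18) with each filter on dim clusters, with repeated quantile normalization and with a trend and robust prior, and 0 in the other 17. The stricter filter kept 25 of the 30 genes. Apart from Cox18 the lowest adjusted p of any member was 0.0748, that of Surf1 with the neuronal marker mean as a covariate. Signs of differences near 0 were not stable: 21 of the 30 genes changed sign in some alternative, each from a value of 0.11 or less in size, and none while called. The median was -0.027 to 0.039 for subunits and 0.00092 to 0.044 for assembly factors. Over all clusters, 1102 were called higher and 823 lower. The higher count was 632 with an ordinary F test, and both counts were 545 and 471 without replicate 3 of either group. Centring each array on its median gave 993 higher and 989 lower. Leaving out 1 array gave 795 to 1122 higher and 609 to 741 lower.

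Between control and cuprizone arrays of the same replicate number, deviations from the group means correlated at -0.186, -0.0246, 0.21 and -0.0646. Between arrays of different numbers the correlations ran from -0.266 to 0.165. The 0.21 of replicate 3 was the highest of all pairs, and whether the replicate number marks a shared factor is not settled here. With the number as a block, 892 clusters were higher and 636 lower, and Cox18 had an adjusted p of 0.128. The number of arrays, 4 a group, limits the precision. Intervals are for array values of whole tissue, and a change confined to a small cell population could be hidden in them.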
